A study of Homo sapiens with 38 samples.

Results

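The untreated libraries of the neuroblastoma lines NB1643 and NB1691 were compared with those of CHLA15 and CHLA20. By the sample labels these are 8 of the 38 samples of the series, 2 libraries per line, all without drug, and they served as controls of palbociclib treatment. No vehicle was stated for these controls. A gene counted as a difference between the sides only where both NB lines stood on the same side of both CHLA lines. The total RNA of established human cell lines was measured by RNA-seq as read counts per gene. The labels give DMEM with serum as the medium of all 4 lines, whereas the study's methods give RPMI, and the labels' text on RNA extraction speaks of xenograft tissue, whereas the methods speak of cells. Nothing says whether the 2 libraries of a line came from separate cultures, so p-values here measure only the spread between these libraries, which may be technical. NB1643 and NB1691 are known as lines with MYCN amplification, and CHLA15 and CHLA20 as lines without it that were derived from the same patient, so the CHLA side holds 1 donor.

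MYCN and MYC encode related transcription factors that bind DNA with the partner MAX and drive growth and ribosome production. Amplification of MYCN marks a high-risk form of neuroblastoma, a childhood tumour of the sympathetic nervous system, and neuroblastoma lines without it often express MYC. Most neuroblastoma cells have an adrenergic identity, with the transcription factors HAND2 and GATA3 and the enzymes of noradrenaline synthesis, and some have a mesenchymal identity with extracellular matrix genes. RET, NTRK2 and ALK are receptors through which neurotrophic ligands act on sympathetic neuroblasts.

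The libraries held 48484706 to 93011010 counts on genes. Levels are given as counts per 1000000 counts of a library (CPM), with library sizes scaled by TMM, and differences as log2 fold changes, NB minus CHLA, averaged over the 4 pairs of 1 NB line with 1 CHLA line. Beside the mean stands the weakest difference, the one nearest 0 among the 4 pairs. The p of a gene was the largest of its 4 pairwise p-values from the quasi-likelihood test of edgeR, adjusted by the Benjamini-Hochberg method over all genes tested.

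MYCN was examined first. The sides had been chosen as lines with high and low MYCN RNA. The difference of MYCN and its p-value therefore describe that choice and are no independent result. Its level was 2.32 and 2.30 CPM in CHLA15, 2.92 and 3.44 in CHLA20, 3134 and 3302 in NB1643 and 87.4 and 87.7 in NB1691 (chr2:16080672-16087129, plus strand, GRCh37). All 4 NB libraries lay above all 4 CHLA libraries, and NB1691 lay far below NB1643. The mean difference was 7.62 on the log2 scale (SE 0.07, adjusted p = 5.47e-12), and the weakest was 4.79, or 27.6-fold. MYC showed the reverse order, at 727 and 691 CPM in CHLA15, 669.9 and 716 in CHLA20, 0.608 and 0.0972 in NB1643 and 73.97 and 67.2 in NB1691 (chr8:128747680-128755197, plus strand). No library of either side overlapped the other side, and MYC was nearly absent from NB1643. The mean difference of MYC was -7.05 (SE 0.14, adjusted p = 4.92e-09), and the weakest was -3.30. The call of MYC was lost in a comparison of 4 against 4 libraries without a term for the line (adjusted p = 0.109).

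The NB lines were less like each other than either was like the CHLA lines. Pearson's r of log2 CPM across genes, a description in which genes are not independent, was 0.992 to 0.996 within a line and 0.992 to 0.994 between CHLA15 and CHLA20. Between CHLA lines and NB1643 it was 0.917 to 0.925, between CHLA lines and NB1691 0.787 to 0.797, and between the NB lines 0.752 to 0.760. Of 21396 tested genes, 189 (0.883%) differed at least 2-fold between CHLA20 and CHLA15, and 11063 (51.7%) between NB1691 and NB1643. NB1691 also stood apart in composition. FN1 alone took 5.02% to 5.09% of its counts, and the TMM factors were 0.802 to 0.811 there against 1.06 to 1.09 in the other lines. The summed level of 11 markers of adrenergic neuroblasts was 5113 to 5712 CPM in the CHLA lines and 6326 to 6622 in NB1643, but 754.9 to 842.7 in NB1691. The summed level of 8 fibroblast markers was 698.8 to 793 CPM in the CHLA lines and 255.7 to 259.7 in NB1643, but 17100 to 17420 in NB1691, where COL1A1 gave most of it. In such bulk libraries fewer cells of a type and less RNA per cell cannot be told apart. The sums of the Schwann cell markers were at most 15.69 CPM, of the endothelial markers at most 14.62 and of the blood markers at most 13.58 in any library. The defining markers SOX10 and CDH19 of Schwann cells and CD3E of blood were at or near 0 in all 8 libraries. The identity of the NB1691 libraries was taken from the labels and was not tested. Because NB1691 stands apart, counts are also given for each NB line on its own.

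In all, 4495 of the 21396 tested genes (21%) differed between the NB and the CHLA lines in all 4 line pairs. The NB lines were higher in 1931 genes (9.03%) and lower in 2564 (12%). With at least 2-fold in every pair, 717 genes (3.35%) were higher and 1008 (4.71%) lower. Scaling by library totals instead of TMM shifted the median of all genes by -0.20 and gave 1388 higher and 3218 lower, so higher genes were 30.1% of the calls and not 43%. With NB1643 alone as the NB side 5072 of 19156 genes were higher and 5733 lower, and with NB1691 alone 8287 and 7383 of 20860. A further 4772 genes (22.3%) differed from the CHLA lines in both NB lines but in opposite directions. With lines as the replicates, 2 against 2, edgeR gave 0 calls (smallest adjusted p = 0.322), and 2202 of 20554 genes had an unadjusted p under 0.05. The calls therefore speak of these 4 lines and not of MYCN-amplified lines in general.

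**Figure D1:**
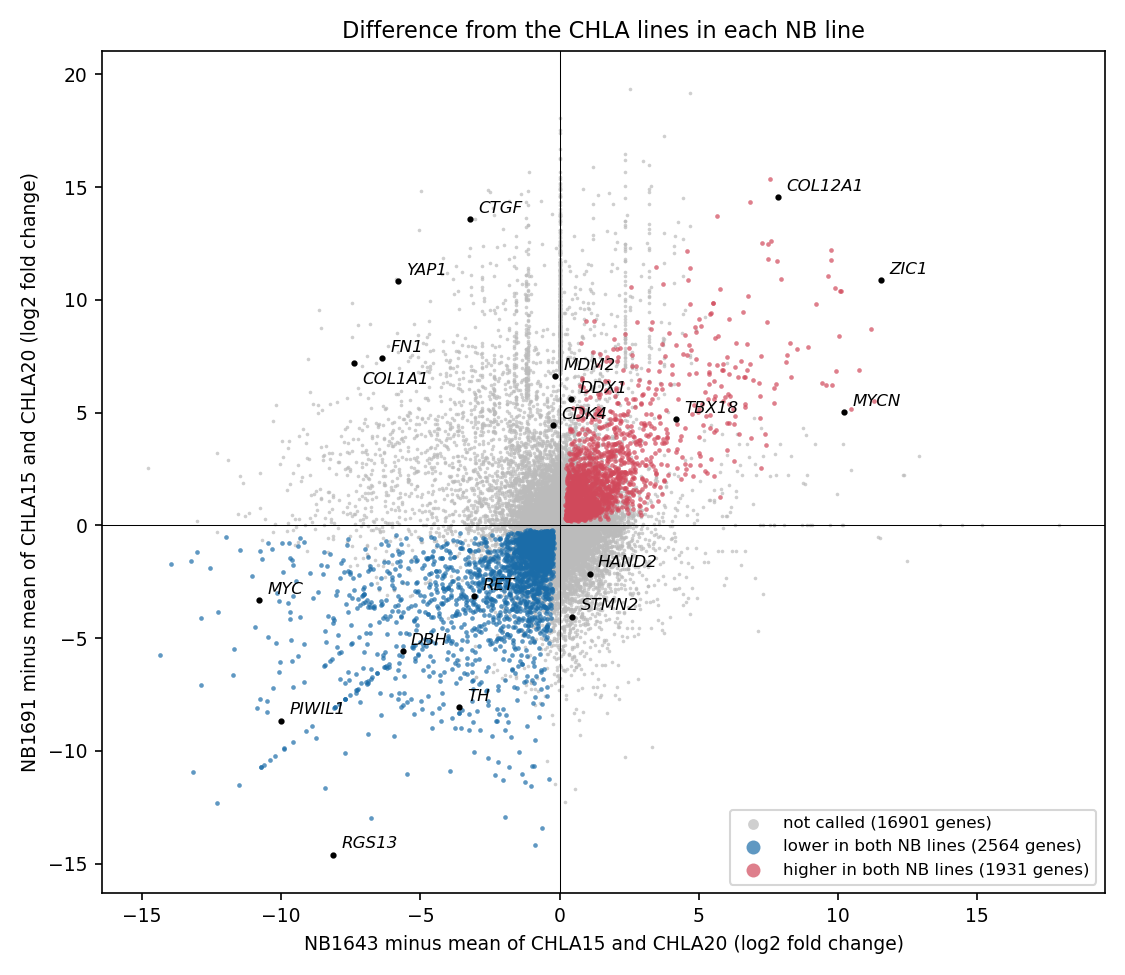
Each point is 1 of the 21396 tested genes, with the log2 fold change of NB1643 against the mean of the CHLA lines on the x axis and that of NB1691 on the y axis. The 1931 red and 2564 blue genes were called in both NB lines, and genes such as FN1 and HAND2 lie in the quadrants where the NB lines went opposite ways.

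Of 8 listed neighbours of MYCN on chromosome 2, 5 rose in the NB lines (62.5%, against 9.03% of all genes) and none fell, with a median difference of 2.94 against 0.04 for all tested genes. DDX1, an RNA helicase gene often co-amplified with MYCN, was at 212 and 206 CPM in CHLA15, 229 and 241 in CHLA20, 289 and 298 in NB1643 and 10559 and 10868 in NB1691 (chr2:15731302-15774470, plus strand). It exceeded MYCN in NB1691, but levels of different genes are not corrected for length. Its mean difference was 3.00 (SE 0.05, adjusted p = 0.00153), but the weakest was 0.32, since NB1643 lay little above the CHLA lines. NBAS, a gene of vesicle transport, had the same pattern, at 63.3 and 60.7 CPM in CHLA15, 62.2 and 58.5 in CHLA20, 86.9 and 74.7 in NB1643 and 1166 and 1198 in NB1691 (adjusted p = 0.00266, and 0.0548 without CHLA15 library 2). FAM49A (mean difference 2.89, weakest 1.43) and FAM84A (4.03 and 1.91) rose more clearly in both. MYCNOS, the antisense RNA of the locus, was at 33.1 and 36.8 CPM in NB1643 and 0.910 and 0.872 in NB1691 against at most 0.0560 in the CHLA libraries. The strand setting of the counting was not stated, so reads of MYCNOS and MYCN cannot be told apart. Windows of 5 Mb were compared over the genome. The window at 15 to 20 Mb of chromosome 2 had the highest median difference, 2.34 over 13 tested genes. The median was 1.21 in NB1643 and 4.27 in NB1691, with 7 genes called higher and 0 lower. MYCN, by which the sides were chosen, lies in this window and is among the genes called higher. The window is therefore not independent of that choice.

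Few other genes of the MYC network and of ribosome biogenesis were called. Of 12 tested network genes, MYCN, by which the sides were chosen, rose, MYC fell and the other 10 did not pass the test. In the ribosome biogenesis list 2 of 40 rose and 4 fell, shares at or under those of all genes (9.03% and 12%), with a median of -0.08. The 2 higher calls became 0 without CHLA15 library 2 or CHLA20 library 1. The NB lines went different ways here. Against the CHLA lines 19 members were higher and 6 lower in NB1643, against 5072 and 5733 of all 19156 genes. In NB1691 3 were higher and 29 lower, against 8287 and 7383 of all 20860. UBTF, a factor of rRNA gene transcription, was at 225 and 227 CPM in CHLA15, 211 and 219 in CHLA20, 109.8 and 101 in NB1643 and 157 and 159 in NB1691 (mean difference -0.77, weakest -0.44, adjusted p = 0.000204), and MRTO4, a ribosome assembly factor, fell too (-0.90, 8.37e-05). In the polyamine list 3 of 21 rose (14.3%, against 9.03% of all genes) and 6 fell (28.6%, against 12%). SRM, spermidine synthase, was at 121 and 119.5 CPM in CHLA15, 119 and 137 in CHLA20, 61.4 and 60.3 in NB1643 and 85.9 and 89.3 in NB1691 and fell by 0.77 on the log2 scale (adjusted p = 0.000469). EIF5A2, an isoform of the hypusine-bearing translation factor, was at 3.52 to 4.13 CPM in the CHLA and 14.1 to 33.8 CPM in the NB libraries (mean difference 2.55, adjusted p = 4.18e-08), while EIF5A fell (mean difference -0.88, adjusted p = 0.000119).

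The enzymes of noradrenaline synthesis were low in both NB lines. TH makes L-DOPA from tyrosine, DDC makes dopamine from it, DBH makes noradrenaline and PNMT makes adrenaline. In GRCh37, DBH lies at chr9:136501485-136524451, plus strand, TH at chr11:2185159-2193045, minus strand, DDC at chr7:50526134-50633102, minus strand and PNMT at chr17:37824234-37826728, plus strand. DBH was at 718 and 689 CPM in CHLA15, 608 and 627 in CHLA20, 13.2 and 13.3 in NB1643 and 12.8 and 14.95 in NB1691. The 4 NB libraries were alike and lay far below all CHLA libraries. Its mean difference was -5.60 (SE 0.06, adjusted p = 2.48e-12) and its weakest -5.47, or 44.4-fold lower. TH was at 203 and 212 CPM in CHLA15, 173 and 187 in CHLA20, 16.7 and 14.7 in NB1643 and 0.764 and 0.697 in NB1691. It was thus low in NB1643 and close to absent in NB1691 (mean difference -5.83, SE 0.07, weakest -3.52, adjusted p = 1.74e-11). DDC was at 393 and 371 CPM in CHLA15, 304 and 304 in CHLA20, 57.96 and 58.9 in NB1643 and 21.4 and 22.4 in NB1691 (mean difference -3.25, SE 0.05, weakest -2.38, adjusted p = 6.44e-11). Again no library of one side reached the other, and NB1691 was lower than NB1643. PNMT was low everywhere, at 4.10 to 5.38 CPM in the CHLA and 0.292 to 0.470 CPM in the NB libraries (mean difference -3.47, adjusted p = 9.27e-08).

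Both monoamine oxidases, which break down catecholamines, were lower in the NB lines. MAOA, a mitochondrial monoamine oxidase, was at 552 and 518 CPM in CHLA15, 452 and 392 in CHLA20, 57.8 and 57.9 in NB1643 and 9.89 and 9.78 in NB1691 (mean difference -4.32, weakest -2.87, adjusted p = 6.78e-11). MAOB, its paralog, was at 7.85 to 12.2 CPM in the CHLA libraries, 0 counts in both NB1643 libraries and 0.747 and 0.590 CPM in NB1691, where it was lower by 11.8-fold or more in each pair (adjusted p = 1.05e-08). PTS, an enzyme of the cofactor of TH, rose by 0.64 (adjusted p = 0.00677), a call lost without CHLA20 library 1 (0.0759). Of 20 genes listed for catecholamine synthesis, storage and uptake, 7 fell (35%, against 12% of all genes) and 2 rose, with a median of -1.31. With NB1643 alone 10 fell and 8 rose, against 5733 and 5072 of all 19156 genes. With NB1691 alone 14 fell and 4 rose, against 7383 and 8287 of all 20860.

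The promoter sequences of DBH, DDC and RET, which were lower in all line pairs, and of ZIC1 and ZIC4, which were nearly silent in the CHLA lines (described further down), are printed because the sides separated clearly in them in all 8 libraries. Each run is the RefSeq window from 250 bases before to 50 after the start of the gene, 5′ to 3′ on the strand of the gene (table built on GRCh38.p14), placed on GRCh37 by exact match: DBH at chr9:136501235-136501534 (plus strand), DDC at chr7:50633053-50633352 (minus strand), RET at chr10:43572267-43572566 (plus strand), ZIC1 at chr3:147126902-147127201 (plus strand) and ZIC4 at chr3:147110120-147110419 (minus strand). The starts are those of RefSeq. For ZIC1 and ZIC4 the window lies inside the span of the gene in the GRCh37 annotation (chr3:147111209-147228080 and chr3:147103833-147124596). Capitals mark the E-box CACGTG, the preferred site of MYC and MYCN.
DBH: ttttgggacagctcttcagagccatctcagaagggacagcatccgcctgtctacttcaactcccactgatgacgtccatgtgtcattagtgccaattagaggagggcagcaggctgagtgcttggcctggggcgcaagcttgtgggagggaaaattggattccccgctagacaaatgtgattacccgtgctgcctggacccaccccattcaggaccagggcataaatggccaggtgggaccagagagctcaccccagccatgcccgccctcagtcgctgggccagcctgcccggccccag
DDC: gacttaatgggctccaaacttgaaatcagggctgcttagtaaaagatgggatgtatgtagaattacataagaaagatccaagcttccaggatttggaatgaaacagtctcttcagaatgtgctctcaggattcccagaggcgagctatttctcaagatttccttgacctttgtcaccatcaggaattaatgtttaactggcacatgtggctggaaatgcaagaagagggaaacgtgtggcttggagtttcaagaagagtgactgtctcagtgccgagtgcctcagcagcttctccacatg
RET: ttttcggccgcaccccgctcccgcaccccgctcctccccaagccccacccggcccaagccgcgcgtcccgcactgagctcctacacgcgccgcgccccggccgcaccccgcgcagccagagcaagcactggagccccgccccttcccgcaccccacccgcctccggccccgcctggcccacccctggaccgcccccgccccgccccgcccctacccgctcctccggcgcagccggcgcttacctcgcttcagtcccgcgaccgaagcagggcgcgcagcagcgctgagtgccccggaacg
ZIC1: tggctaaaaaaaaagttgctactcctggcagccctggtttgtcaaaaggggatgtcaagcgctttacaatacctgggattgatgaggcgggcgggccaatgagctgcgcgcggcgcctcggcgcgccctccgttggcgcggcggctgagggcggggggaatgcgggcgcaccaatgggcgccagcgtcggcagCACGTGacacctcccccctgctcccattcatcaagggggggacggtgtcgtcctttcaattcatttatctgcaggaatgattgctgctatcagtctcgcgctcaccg
ZIC4: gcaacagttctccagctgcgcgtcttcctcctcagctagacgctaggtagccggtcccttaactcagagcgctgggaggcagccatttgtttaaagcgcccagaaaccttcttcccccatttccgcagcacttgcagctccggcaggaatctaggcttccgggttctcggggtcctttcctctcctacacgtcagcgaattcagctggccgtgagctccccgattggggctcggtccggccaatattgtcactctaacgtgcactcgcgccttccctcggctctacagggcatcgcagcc
The window of ZIC1 held the E-box, with its first base at position -57 from the RefSeq start, and the other 4 windows held none. None of the 5 held TGANTCA, the letters of an AP-1 site, or TGACGTCA, those of a cAMP response element. Both strands were searched. All 3 motifs read the same on either strand, and none contains another. GC content was 78.7% for RET, 61.3% for ZIC1, 59.7% for ZIC4, 59.3% for DBH and 44.3% for DDC.

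The same letters were counted in the windows of all 13034 tested genes that had one. CACGTG stood in 9.61% of them, in 10.2% of the genes called higher in the NB lines (142 of 1392) and in 8.74% of those called lower (154 of 1763). Among genes lower at least 2-fold in every pair the share was 5.3% (30 of 566, 95% Wilson interval 3.74 to 7.47, counting error only), and among those higher at least 2-fold it was 9.66%. TGANTCA stood in 5.02% of all windows, 5.1% of the higher and 4.31% of the lower genes, and TGACGTCA in 3.04%, 2.23% and 3.01%. In all promoters of the table, tested or not, the shares were 7.43%, 7.76% and 1.98%. A match is only a match of letters in this window.

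Receptors and ligands of neurotrophic signalling separated the sides in both directions, with 8 of 27 higher and 8 lower (29.6% each). Among all genes 9.03% were higher and 12% lower. RET, the receptor tyrosine kinase of the GDNF family ligands, was at 411 and 439 CPM in CHLA15, 389.6 and 398 in CHLA20, 51.3 and 45.3 in NB1643 and 43.8 and 49.4 in NB1691 (chr10:43572512-43625799, plus strand). Both NB lines were at the same low level, far below all CHLA libraries (mean difference -3.11, SE 0.06, weakest -3.02, adjusted p = 7.55e-11). NRTN, the ligand neurturin, was at 5.68 to 7.88 CPM in the CHLA and 0.0268 to 0.124 CPM in the NB libraries (mean difference -6.62, adjusted p = 1.19e-09). The co-receptors of RET split. GFRA3 was at 25.05 and 25.7 CPM in CHLA15, 19.97 and 19.97 in CHLA20, 6.78 and 7.62 in NB1643 and 0.162 and 0.148 in NB1691 (mean difference -4.41, adjusted p = 6.1e-08). GFRA1, the co-receptor of GDNF, was at 4.72 and 4.84 CPM in CHLA15, 6.10 and 6.95 in CHLA20, 18.8 and 17.6 in NB1643 and 966 and 1035 in NB1691 (mean difference 4.60, adjusted p = 5.03e-08). GFRA1 was thus higher in both NB lines, by little in NB1643 and by much in NB1691, while GFRA3 was lower. Comparing 4 against 4 libraries without a term for the line gave 5 lower members instead of 8, and GFRA3 (adjusted p = 0.156), NTRK2 (0.346) and ALK (0.364) lost their calls.

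NTRK2, the receptor of BDNF, was at 72.6 and 71.8 CPM in CHLA15, 99.4 and 93.1 in CHLA20, 44.6 and 41.7 in NB1643 and 0.244 and 0.443 in NB1691 (mean difference -4.42, weakest -0.74, adjusted p = 2.15e-05). NTRK2 was lower in the NB lines and close to absent in NB1691, whereas the ligand BDNF was higher. BDNF was at 0.706 and 0.721 CPM in CHLA15, 1.47 and 1.55 in CHLA20, 10.1 and 9.59 in NB1643 and 44.7 and 43.9 in NB1691 (mean difference 4.33, weakest 2.70, adjusted p = 1.13e-09). ALK, a receptor kinase mutated in part of neuroblastoma, was at 241 and 231 CPM in CHLA15, 249.7 and 226 in CHLA20, 158 and 140.3 in NB1643 and 2.58 and 2.90 in NB1691 (mean difference -3.55, weakest -0.66, adjusted p = 3.43e-05). KIT, the receptor of stem cell factor, was at 11.1 and 10.2 CPM in CHLA15, 14.6 and 15.6 in CHLA20, 57.9 and 59.9 in NB1643 and 83.8 and 86.04 in NB1691 (mean difference 2.48, weakest 1.96, adjusted p = 1.11e-09). IGF1R, the receptor of insulin-like growth factors, was at 22.8 and 22.6 CPM in CHLA15, 21.3 and 18.3 in CHLA20, 86.3 and 69.6 in NB1643 and 231 and 238 in NB1691 (mean difference 2.67, weakest 1.78, adjusted p = 4.51e-08). The latter kinases were thus higher in both NB lines and ALK was lower. EGFR (mean difference 1.51, adjusted p = 0.000492) and LTK (2.55, 0.000647) rose, and MDK, the ligand midkine (-1.26, 4.99e-05), and FGFR1 (-0.81, 0.00185) fell.

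**Figure D2:**
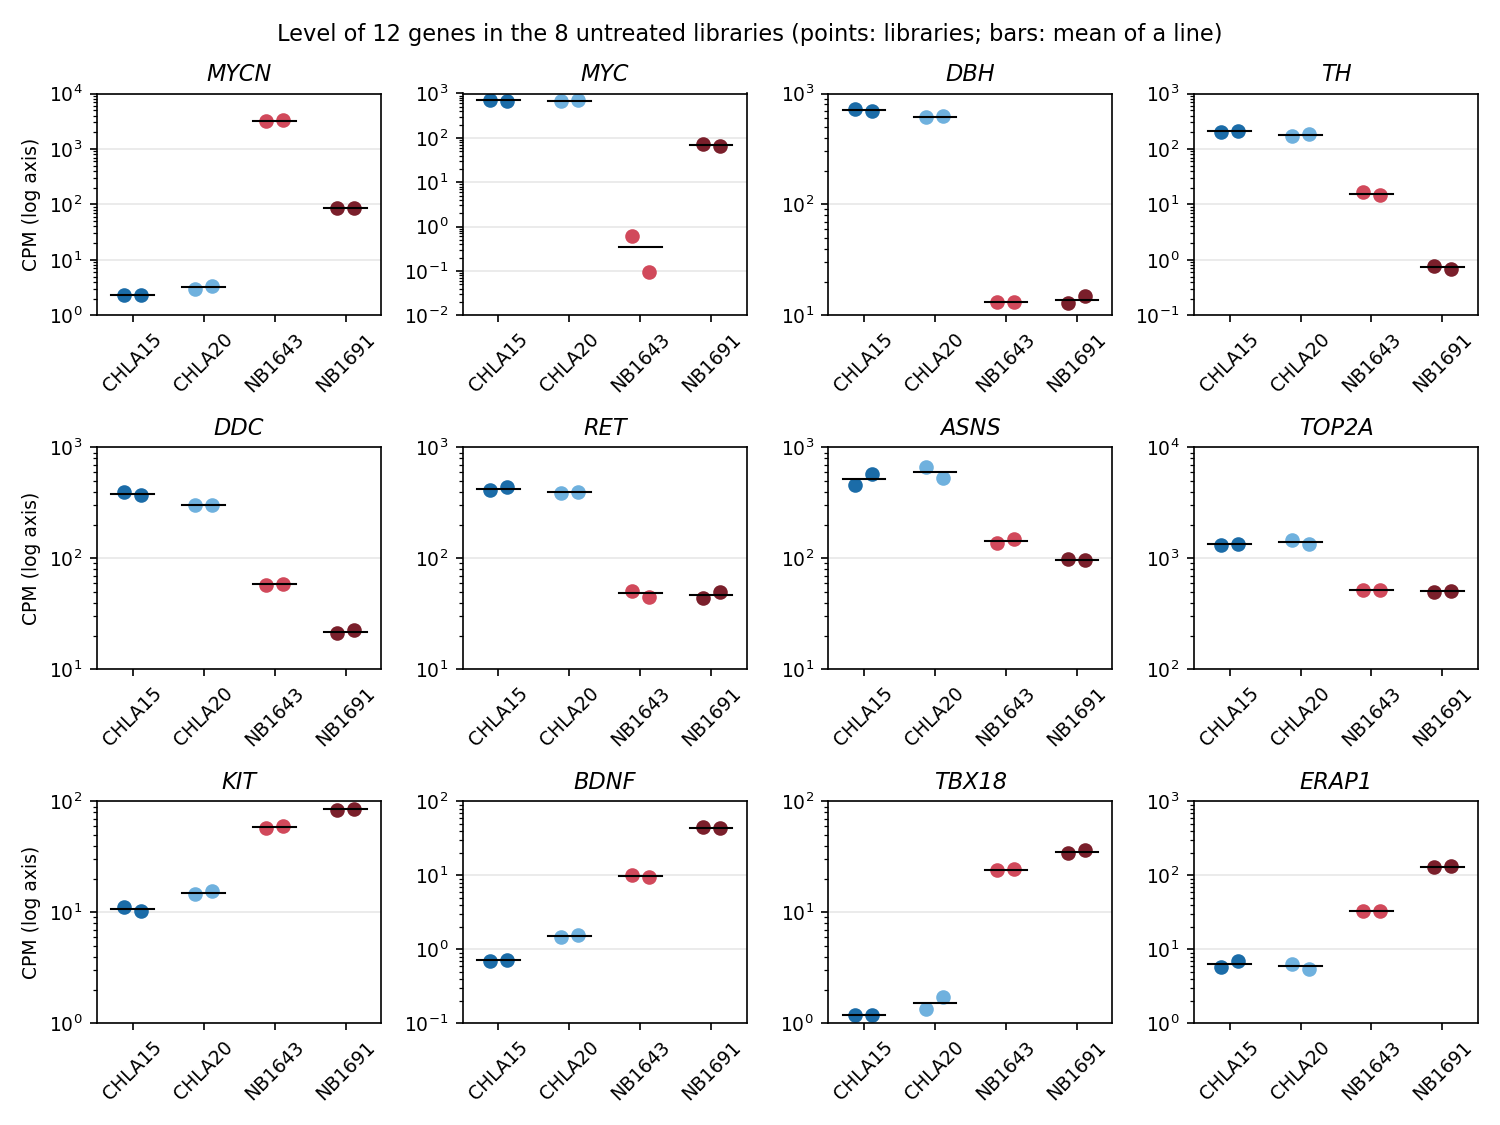
Level in CPM on a log axis of 12 genes in the 8 untreated libraries, 2 points per line with a bar at their mean. In every panel the CHLA and NB libraries do not overlap, and MYCN, MYC and TH differ more between NB1643 and NB1691 than DBH, RET and TOP2A do.

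Of 21 transcription factors of the adrenergic identity 11 fell in the NB lines (52.4%, against 12% of all genes) and 0 rose, with a median of -1.32, which was -0.59 in NB1643 and -2.24 in NB1691. With NB1643 alone as the NB side 12 were lower and 5 higher, against 5733 and 5072 of all 19156 genes. With NB1691 alone 20 were lower and 1 higher, against 7383 and 8287 of all 20860. Comparing 4 against 4 libraries without a term for the line gave only 3 lower, and ISL1 (adjusted p = 0.0838), SIX3 (0.114), TFAP2B (0.408) and KLF7 (0.0574) were among those that lost their calls. ISL1, a homeodomain factor of sympathetic neuroblasts, was at 314 and 293 CPM in CHLA15, 228 and 231 in CHLA20, 123 and 132 in NB1643 and 20.7 and 20.99 in NB1691 (mean difference -2.35, weakest -0.85, adjusted p = 8.09e-07). LMO1, a neuroblastoma susceptibility gene, was at 59.1 and 59.7 CPM in CHLA15, 53.9 and 58.7 in CHLA20, 6.26 and 6.94 in NB1643 and 0.601 and 0.657 in NB1691 (mean difference -4.82, weakest -3.10, adjusted p = 6.12e-11). In both the order was CHLA lines, NB1643, NB1691, without overlap. SOX11 (mean difference -2.58), SATB1 (-2.03), ZNF536 (-3.11), SIX3 (-4.05), TFAP2B (-3.70), TBX2 (-1.20), KLF7 (-1.32) and DACH1 (-0.92) fell too. HAND2 went opposite ways in the NB lines, at 443 and 424 CPM in CHLA15, 405 and 409.5 in CHLA20, 907 and 869 in NB1643 and 91.9 and 98.9 in NB1691, higher in NB1643 and lower in NB1691 than in the CHLA lines. GATA3 missed the test (adjusted p = 0.0909), at 373 and 334 CPM in CHLA15, 289 and 284 in CHLA20, 244 and 258 in NB1643 and 33 and 35.6 in NB1691.

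Of 29 genes of neuronal differentiation 11 fell (37.9%, against 12% of all genes) and 0 rose, with a median of -1.46. With NB1643 alone as the NB side 13 were lower and 13 higher (median 0.20), against 5733 and 5072 of all 19156 genes. With NB1691 alone 27 were lower and 2 higher (median -2.82), against 7383 and 8287 of all 20860. The neurofilament gene NEFH was at 127 and 131 CPM in CHLA15, 132 and 154 in CHLA20, 0.595 and 0.136 in NB1643 and 3.59 and 4.04 in NB1691 (mean difference -6.77, weakest -5.07, adjusted p = 3e-10). The medium neurofilament NEFM was at 634 and 654 CPM in CHLA15, 504 and 527 in CHLA20, 152 and 144 in NB1643 and 54.6 and 55.4 in NB1691 (mean difference -2.67, weakest -1.80, adjusted p = 5.79e-10). NPY, a neuropeptide released with noradrenaline, was at 102 and 102 CPM in CHLA15, 72.5 and 85.2 in CHLA20, 1.56 and 1.52 in NB1643 and 4.52 and 4.64 in NB1691 (mean difference -5.07, weakest -4.10, adjusted p = 1.35e-11). These were low in both NB lines, and NEFH and NPY lowest in NB1643. DCX (mean difference -2.71), ELAVL3 (-2.24), INA (-1.86), STMN3 (-1.79), NEFL (-1.44), PRPH (-3.04) and SYN1 (-1.43) fell too. PRPH had a weakest difference of only -0.26 (adjusted p = 0.0411) and SYN1 of -0.31 (0.0445). Leaving out any 1 library of the CHLA or NB1691 lines ended both calls (adjusted p 0.0565 to 0.245 for PRPH and 0.0531 to 0.116 for SYN1), and leaving out NB1643 library 2 ended that of SYN1 (0.369). SYN1 also lost its call under library totals (0.0674) and upper quartiles (0.122). STMN2, a stathmin of growing axons, went opposite ways, slightly higher in NB1643 and far lower in NB1691, at 1603 and 1520.1 CPM in CHLA15, 1567 and 1548 in CHLA20, 2024 and 2250.3 in NB1643 and 89.3 and 99.7 in NB1691. CHGB, a granin, was high only in NB1643, at 191 and 187 CPM in CHLA15, 162 and 154 in CHLA20, 1297 and 1349 in NB1643 and 142 and 172 in NB1691.

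For mesenchymal, matrix and antigen presentation genes the NB lines differed. Of 29 mesenchymal genes 6 rose (20.7%, against 9.03% of all genes) and 3 fell (10.3%, against 12%) in both NB lines. With NB1691 as the only NB line 24 were higher and 3 lower, against 8287 and 7383 of all 20860 genes. With NB1643 as the only one 7 were higher and 14 lower, against 5072 and 5733 of all 19156. The medians were 3.03 in NB1691 and -1.14 in NB1643. The summed fibroblast markers given above were also highest in NB1691, and their part in these values was not tested. TBX18, a T-box factor of mesenchymal lineages, was at similar levels in both NB lines, at 1.19 and 1.20 CPM in CHLA15, 1.34 and 1.72 in CHLA20, 24.2 and 24.4 in NB1643 and 34.6 and 36.2 in NB1691 (mean difference 4.45, SE 0.08, weakest 3.999, adjusted p = 6.78e-11). RUNX1, a Runt factor of blood and nociceptive neurons, was at 3.18 and 2.55 CPM in CHLA15, 3.27 and 2.52 in CHLA20, 16.3 and 17.4 in NB1643 and 15.6 and 16.1 in NB1691 (mean difference 2.49, weakest 2.44, adjusted p = 2.38e-08). For both genes NB1643 and NB1691 had similar levels, well above every CHLA library. TGFBR2, a TGF-beta receptor (mean difference 3.37), FOSL2, an AP-1 subunit (2.44), CYR61, a target of YAP (7.47), and SMAD3 (0.83) rose as well. NOTCH1 (-3.55), NOTCH3 (-2.54) and TWIST1 (-1.97) fell, TWIST1 not without CHLA15 library 1 (adjusted p = 0.0713). CTGF and YAP1 were high in NB1691 and lower in NB1643 than in the CHLA lines, where both were already near 0. YAP1, a coactivator of the Hippo pathway, was at 195 and 199 CPM there, at 0.0666 to 0.188 in the CHLA libraries and at 0 counts in NB1643. CTGF was at 2153 and 2067 CPM there and at most 0.203 CPM elsewhere.

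In the list of extracellular matrix and integrin genes 6 of 35 rose (17.1%) and 2 fell (5.71%) in both NB lines. Among all genes 9.03% rose and 12% fell. With NB1691 as the only NB line 27 were higher, against 8287 of all 20860 genes. With NB1643 as the only one 18 were lower, against 5733 of all 19156. SPARC, a matrix glycoprotein gene, was at 40.8 and 41.6 CPM in CHLA15, 38.3 and 40.6 in CHLA20, 88.4 and 97.02 in NB1643 and 8183 and 8485 in NB1691 (mean difference 4.45, weakest 1.17, adjusted p = 5.44e-08). TIMP1, an inhibitor of metalloproteinases, was at 6.67 and 7.75 CPM in CHLA15, 6.68 and 6.78 in CHLA20, 18.98 and 19 in NB1643 and 394 and 407 in NB1691 (mean difference 3.65, weakest 1.40, adjusted p = 5.48e-08). ITGA1, a collagen receptor, was more even, at 34.7 and 32.7 CPM in CHLA15, 45.4 and 40.96 in CHLA20, 95.4 and 91.9 in NB1643 and 74.7 and 80.3 in NB1691 (mean difference 1.16, adjusted p = 2.46e-06). LAMA4, a laminin chain, fell, at 59.7 and 60.7 CPM in CHLA15, 36.99 and 34.9 in CHLA20, 6.07 and 6.03 in NB1643 and 11.97 and 12.7 in NB1691 (mean difference -2.43, adjusted p = 8.15e-09). FN1 and COL1A1, for fibronectin and collagen, went opposite ways in the NB lines. FN1 was at 562 and 539 CPM in CHLA15, 286 and 203 in CHLA20, 4.19 and 4.75 in NB1643 and 62748 and 62671 in NB1691, and COL1A1 at 95.1 and 100.2 CPM in CHLA15, 107 and 98.7 in CHLA20, 0.360 and 0.914 in NB1643 and 15069 and 14764 in NB1691. The fibroblast markers DCN, at 75.8 and 79.9 CPM in CHLA15, 97.2 and 113 in CHLA20, 0.0138 and 0.350 in NB1643 and 2.16 and 2.48 in NB1691, and PDGFRA, at 295 and 290.0 CPM in CHLA15, 209.9 and 184 in CHLA20, 98.3 and 97.2 in NB1643 and 2.11 and 1.85 in NB1691, were lower in both NB lines (mean differences -7.23 and -4.11), also in NB1691, where the summed fibroblast markers were highest.

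Of 22 class I antigen presentation genes 4 rose (18.2%, against 9.03% of all genes) and 1 fell (4.55%, against 12%) in both NB lines. With NB1691 as the only NB line 21 were higher, against 8287 of all 20860 genes. With NB1643 as the only one 4 were higher and 8 lower, against 5072 and 5733 of all 19156. ERAP1, which trims peptides for class I molecules, was at 5.77 and 6.88 CPM in CHLA15, 6.43 and 5.44 in CHLA20, 33.1 and 33.02 in NB1643 and 130.1 and 133 in NB1691 (mean difference 3.43, weakest 2.39, adjusted p = 1.79e-09). TAP2, a subunit of the peptide transporter, was at 2.12 and 1.83 CPM in CHLA15, 3.32 and 3.60 in CHLA20, 10.1 and 11.01 in NB1643 and 18.2 and 19.5 in NB1691 (mean difference 2.43, weakest 1.61, adjusted p = 2.23e-07). Both rose in both lines, with NB1691 the higher. B2M rose as well (mean difference 1.98, adjusted p = 0.0107), by 0.61 in NB1643 and 3.35 in NB1691, a call lost without CHLA20 library 1 (0.125) or NB1643 library 2 (0.0503). HLA-B, which shares reads with its paralogs, was at 933 and 951 CPM in NB1691 and at most 0.470 CPM in the other lines. Of 27 interferon-stimulated genes 1 rose and 1 fell in both, under the shares of all genes. With NB1691 as the only NB line 21 were higher, against 8287 of all 20860 genes. With NB1643 as the only one 17 were lower, against 5733 of all 19156.

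**Figure D3:**
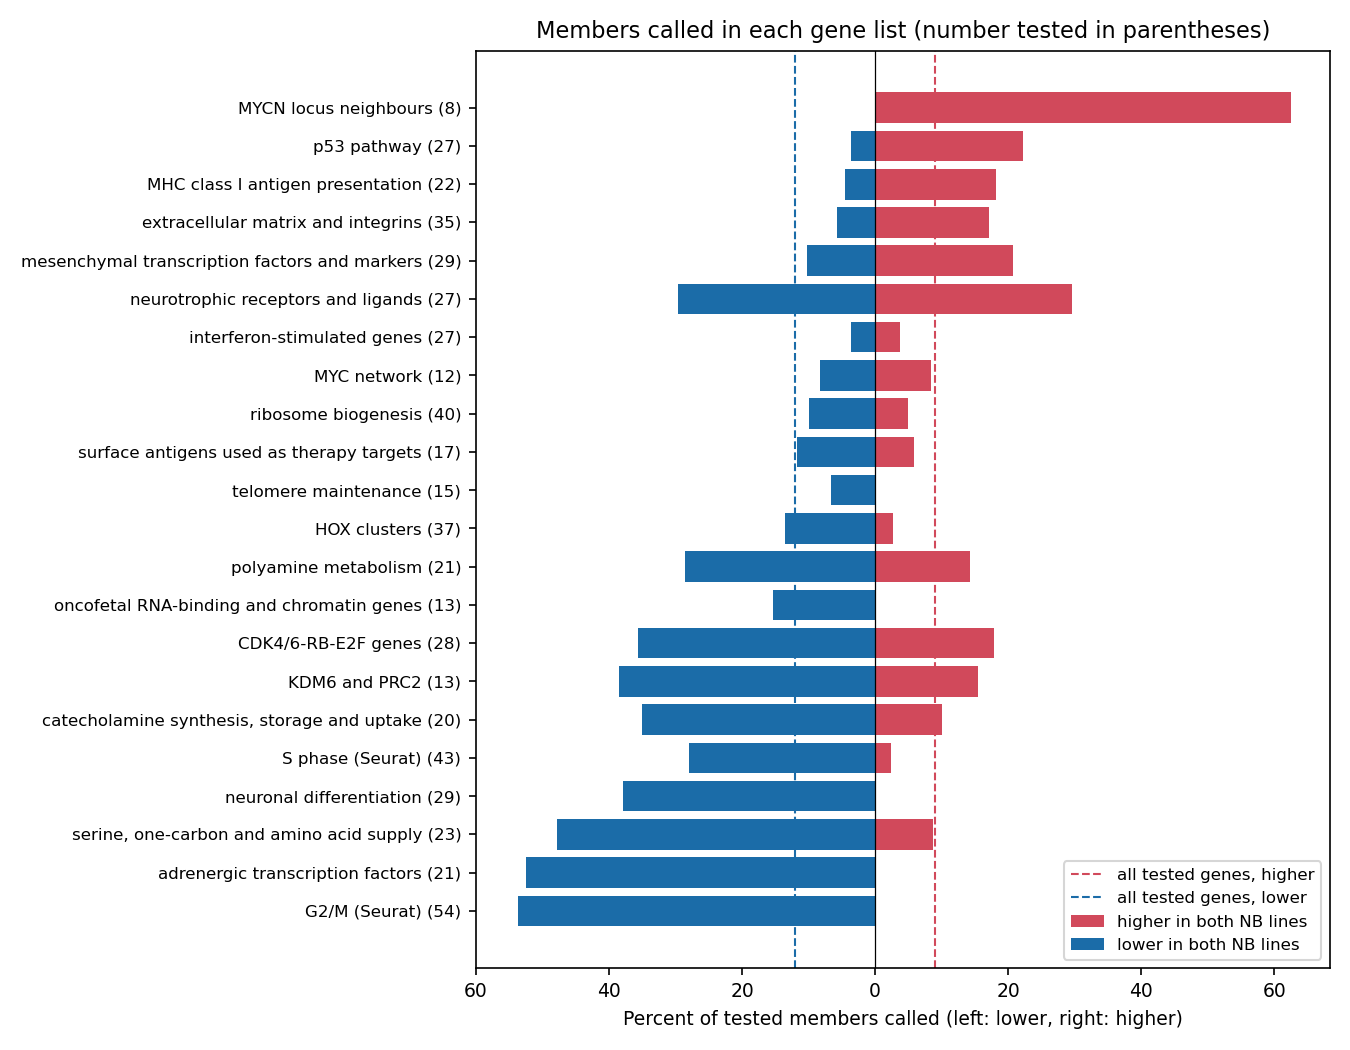
Percent of the tested members of each gene list called higher (right, red) or lower (left, blue) in both NB lines, with the number tested in parentheses and dashed lines at the 9.03% and 12% of all tested genes. Neighbours of MYCN reach 62.5% higher, and adrenergic factors and G2/M genes reach 52.4% and 53.7% lower.

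Of 54 genes of the G2 and M phases of the cell cycle 29 fell in the NB lines (53.7%, against 12% of all genes) and 0 rose, with a median of -0.72, which was -0.38 in NB1643 and -1.09 in NB1691. Of 43 S-phase genes 12 fell (27.9%) and 1 rose. TOP2A, the DNA topoisomerase of dividing cells, was at 1320.1 and 1355 CPM in CHLA15, 1462 and 1335 in CHLA20, 514 and 514 in NB1643 and 499 and 509.7 in NB1691. The NB libraries were alike, and all lay below every CHLA library (mean difference -1.43, SE 0.05, weakest -1.38, adjusted p = 7.23e-09). MKI67, the gene of the Ki-67 antigen, was at 495 and 488 CPM in CHLA15, 544 and 399.9 in CHLA20, 288 and 228 in NB1643 and 133 and 138 in NB1691 (mean difference -1.37, weakest -0.87, adjusted p = 0.000229). AURKB, a mitotic kinase (mean difference -1.41), FAM64A (-1.60), CLSPN, a replication checkpoint gene (-1.71), UHRF1, which maintains DNA methylation (-1.44), and TYMS, thymidylate synthase (-1.42), fell by similar amounts. PRIM1, a DNA primase subunit on chromosome 12, was the S-phase gene that rose, at 48.7 and 52.2 CPM in CHLA15, 54.9 and 53.5 in CHLA20, 66.9 and 75.5 in NB1643 and 310.1 and 317 in NB1691.

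The study treated these lines with palbociclib, an inhibitor of CDK4 and CDK6, and in the untreated libraries the targets themselves did not separate the sides. CDK4 was at 262 and 260.4 CPM in CHLA15, 251 and 289.6 in CHLA20, 224 and 230.4 in NB1643 and 5763 and 5899 in NB1691, so NB1691 stood far above the other lines. CDK6 was at 401 and 373 CPM in CHLA15, 491 and 392 in CHLA20, 588 and 549 in NB1643 and 216 and 236 in NB1691, and CCND1, cyclin D1, at 1066 and 1008 CPM in CHLA15, 929.8 and 918 in CHLA20, 992 and 900.5 in NB1643 and 514 and 523 in NB1691. E2F1 was at 82.9 and 88.97 CPM in CHLA15, 99.4 and 106 in CHLA20, 124 and 112 in NB1643 and 46.9 and 47.4 in NB1691. These 4 genes overlapped between the sides or went opposite ways in the NB lines, and none was called. RB1, the retinoblastoma gene that the kinases inactivate, was at 118 and 116 CPM in CHLA15, 126 and 131 in CHLA20, 69.5 and 80.2 in NB1643 and 64.6 and 67.7 in NB1691 (mean difference -0.80, weakest -0.64, adjusted p = 3.15e-05). E2F2 was at 50.8 and 51.9 CPM in CHLA15, 57.3 and 60.97 in CHLA20, 17.6 and 15.01 in NB1643 and 12.9 and 13.7 in NB1691 (mean difference -1.90, weakest -1.65, adjusted p = 1.64e-08). Both were lower in all 4 NB libraries, as were CCNE1 (mean difference -0.96), CCNE2 (-1.11), CDK2 (-0.93), E2F3 (-0.68) and TFDP1 (-0.85). In this list 10 of 28 fell (35.7%, against 12% of all genes) and 5 rose (17.9%, against 9.03%), a count that became 2 without CHLA15 library 2 and 3 without CHLA15 library 1 or NB1643 library 1. CDKN2A, the inhibitor p16 and ARF, was at 2.93 and 3.04 CPM in CHLA15, 1.70 and 2.13 in CHLA20, 4.56 and 3.71 in NB1643 and 218 and 230.2 in NB1691 (mean difference 3.68, weakest 0.49, adjusted p = 0.0117), so its rise was large in NB1691 and small in NB1643. The call was lost without CHLA15 library 1 (adjusted p = 0.12), CHLA15 library 2 (0.0634) or NB1643 library 1 (0.167). CDKN1B, the inhibitor p27, fell (mean difference -0.73, adjusted p = 5.77e-05). CDKN1A, the inhibitor p21 and a p53 target, was at 28.6 and 28.2 CPM in CHLA15, 26.4 and 28.7 in CHLA20, 38.4 and 35.4 in NB1643 and 179 and 186 in NB1691 (mean difference 1.55, adjusted p = 0.00168). In the p53 list 6 of 27 rose (22.2%, against 9.03% of all genes) and 1 fell, counts that were 3 and 0 without CHLA15 library 1 and 4 and 2 under library totals. In contrast, MDM2 and OS9, both on chromosome 12, were high in NB1691 only. MDM2 was at 7009.5 and 7125 CPM there against 62.4 and 64.8 in NB1643, and OS9 at 14277 and 14575 against 118 and 122. The 4 CHLA libraries held MDM2 at 64.04 to 79.4 CPM and OS9 at 131 to 156 CPM.

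KDM6B, the H3K27 demethylase at the centre of the study, was lower in the NB lines. It was at 107 and 99.3 CPM in CHLA15, 91.3 and 81.8 in CHLA20, 62.8 and 50.9 in NB1643 and 40.7 and 40.9 in NB1691 (mean difference -0.97, SE 0.07, weakest -0.60, adjusted p = 0.000377). Every NB library lay below every CHLA library. Its paralog KDM6A was at 27.6 and 26.1 CPM in CHLA15, 26.2 and 25.6 in CHLA20, 19.8 and 21.2 in NB1643 and 52.1 and 52.04 in NB1691, lower in NB1643 and higher in NB1691, and was not called. EZH2, the methyltransferase of PRC2 that writes the mark KDM6B removes, was at 113 and 115 CPM in CHLA15, 120.1 and 123 in CHLA20, 60.5 and 63.8 in NB1643 and 33.4 and 33.9 in NB1691 (mean difference -1.37, weakest -0.88, adjusted p = 3.73e-07). SUZ12 (mean difference -0.60), PHF19 (-1.08) and RBBP4 (-0.70) fell with it, and JARID2 (0.38) and RBBP7 (0.72) rose. JARID2 lost its call under library totals (adjusted p = 1), without CHLA15 library 1 (0.0571) and without NB1691 library 2 (0.0699). RBBP7 lost it without CHLA15 library 1 (0.0629), CHLA15 library 2 (0.148) or CHLA20 library 1 (0.15). Of 37 tested HOX genes, which PRC2 is known to repress, 5 fell (13.5%, against 12% of all genes) and 1 rose (2.7%, against 9.03%) in both lines. These shares were near or under those of all genes. With NB1691 as the only NB line 25 were higher, against 8287 of all 20860 genes. The 5 lower calls became 2 for 4 against 4 libraries without a term for the line. The 1 higher call became 3 without NB1643 library 1. HOXD8 and HOXD9 fell by 1.88 and 2.06, HOXC9, HOXC8 and HOXC6 by 1.26, 1.13 and 0.85, and HOXD11 rose from at most 0.0938 CPM to 0.506 to 1.43 CPM.

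Of 23 genes of serine, one-carbon and amino acid supply 11 fell in the NB lines (47.8%, against 12% of all genes) and 2 rose, with a median of -0.81, which was -0.73 in NB1643 and -0.84 in NB1691. ASNS, asparagine synthetase, was at 455 and 581 CPM in CHLA15, 668 and 528 in CHLA20, 137 and 149 in NB1643 and 97.9 and 96.8 in NB1691 (mean difference -2.24, SE 0.09, weakest -1.86, adjusted p = 1.62e-07). SHMT2, which makes one-carbon units in mitochondria, was at 643 and 715 CPM in CHLA15, 598 and 526 in CHLA20, 257 and 254 in NB1643 and 139.9 and 144 in NB1691 (mean difference -1.70, weakest -1.14, adjusted p = 2.19e-07). SLC7A5, a transporter of large neutral amino acids, was at 263 and 306 CPM in CHLA15, 408 and 392 in CHLA20, 137 and 114 in NB1643 and 99.2 and 99.03 in NB1691 (mean difference -1.60, weakest -1.18, adjusted p = 8.05e-07). None of these 3 overlapped between the sides. PHGDH, the first enzyme of serine synthesis, fell (mean difference -1.27, adjusted p = 0.00011), as did PSPH, the last (-0.71, 0.000244). CTH of the transsulfuration pathway rose (mean difference 1.61, adjusted p = 0.00351), while CBS of the same pathway fell (-3.81, weakest -0.34, 0.0153). CBS lost its call under DESeq2 (adjusted p = 0.0559) and for 4 against 4 libraries without a term for the line (0.465).

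In the remaining lists few members passed the test, where 9.03% of all genes were called higher and 12% lower. Among 15 telomere genes 1 fell, WRAP53, which carries telomerase to Cajal bodies (mean difference -1.07, adjusted p = 0.000131), and 0 rose. Of 17 surface antigens used as therapy targets ROR1 rose (mean difference 1.25), at 25.8 and 24.5 CPM in CHLA15, 24.1 and 24.2 in CHLA20, 49.7 and 51.5 in NB1643 and 68.6 and 67.2 in NB1691, and ALK and the somatostatin receptor SSTR2 (-3.05) fell. In the oncofetal list 2 of 13 fell, the RNA-binding protein gene IGF2BP3 (mean difference -0.38) and the imprinted RNA H19. H19 was at 248 and 219.8 CPM in CHLA15, 354 and 273 in CHLA20, 18.1 and 17.2 in NB1643 and 0.114 and 0.161 in NB1691 (mean difference -7.42, weakest -3.73, adjusted p = 2.67e-10).

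The genes furthest apart between the sides were named by the weakest of the 4 pairs, among called genes with at least 5 CPM in every library of the higher side. The 10 furthest higher in the NB lines were ZIC1, ZIC4, COL12A1, LINC00654, TTC12, TRIM55, IL13RA2, LRRC7, ANOS1 and SLC12A8. ZIC1 and ZIC4 are neighbouring genes of zinc finger factors of neural crest and hindbrain development, on opposite strands of chromosome 3. ZIC1 was at 0.0400 and 0 CPM in CHLA15, 0 and 0 in CHLA20, 21.4 and 20.4 in NB1643 and 12.7 and 13.3 in NB1691 (chr3:147111209-147228080, plus strand). At the limit of 3 counts per library it was at least 220-fold higher in the NB lines. ZIC4 was at 0.0133 and 0.0176 CPM in CHLA15, 0 and 0 in CHLA20, 6.19 and 6.20 in NB1643 and 7.80 and 7.99 in NB1691, at least 105-fold higher. Both were even across the NB lines, unlike COL12A1, a collagen gene at 6.42 and 5.43 CPM in NB1643 and 631 and 628 CPM in NB1691. SLC12A8, a transporter, was at 3.14 and 2.53 CPM in CHLA15, 2.85 and 2.88 in CHLA20, 166 and 169 in NB1643 and 129 and 132 in NB1691 (mean difference 5.69, weakest 5.51, adjusted p = 4.33e-12). ANOS1, the adhesion protein anosmin, was at 0.533 to 0.845 CPM in the CHLA and 35.7 to 79.4 CPM in the NB libraries, and IL13RA2, a decoy receptor of interleukin 13, at 0.149 to 0.475 and 17.4 to 53.6 CPM.

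The 10 furthest lower were PIWIL1, ZNF154, RGS13, SHISA6, APLNR, NFATC1, EFS, DKK2, PAX8-AS1 and PCDHGB7. PIWIL1, a Piwi protein of the germline, was at 16.7 to 19.6 CPM in the CHLA and 0 to 0.0650 CPM in the NB libraries. RGS13, a regulator of G-protein signalling, was at 42.7 to 57.2 CPM in the CHLA libraries, 0.207 and 0.117 CPM in NB1643 and 0 counts in NB1691. APLNR, the apelin receptor, was at 21.2 to 33.1 CPM in the CHLA and 0.0138 to 0.146 CPM in the NB libraries. DKK2, a secreted modulator of Wnt signalling, was at 70.8 and 72.9 CPM in CHLA15, 51.9 and 55.7 in CHLA20, 0.595 and 0.389 in NB1643 and 0.439 and 0.510 in NB1691 (mean difference -6.98, weakest -6.72, adjusted p = 6.94e-12). PCDHGB7, a clustered protocadherin, was at 111 and 112 CPM in CHLA15, 85.8 and 78.97 in CHLA20, 0.926 and 0.856 in NB1643 and 0.959 and 0.885 in NB1691 (mean difference -6.72, weakest -6.48, adjusted p = 2.48e-12). In both the NB lines had nearly the same low level. ZNF154 was at 7.53 to 15.3 CPM in the CHLA libraries and at the limit of 3 counts per library in the NB lines, at least 137-fold lower. PAX8-AS1 is antisense to PAX8, and the strand of its reads is not known.

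**Figure D4:**
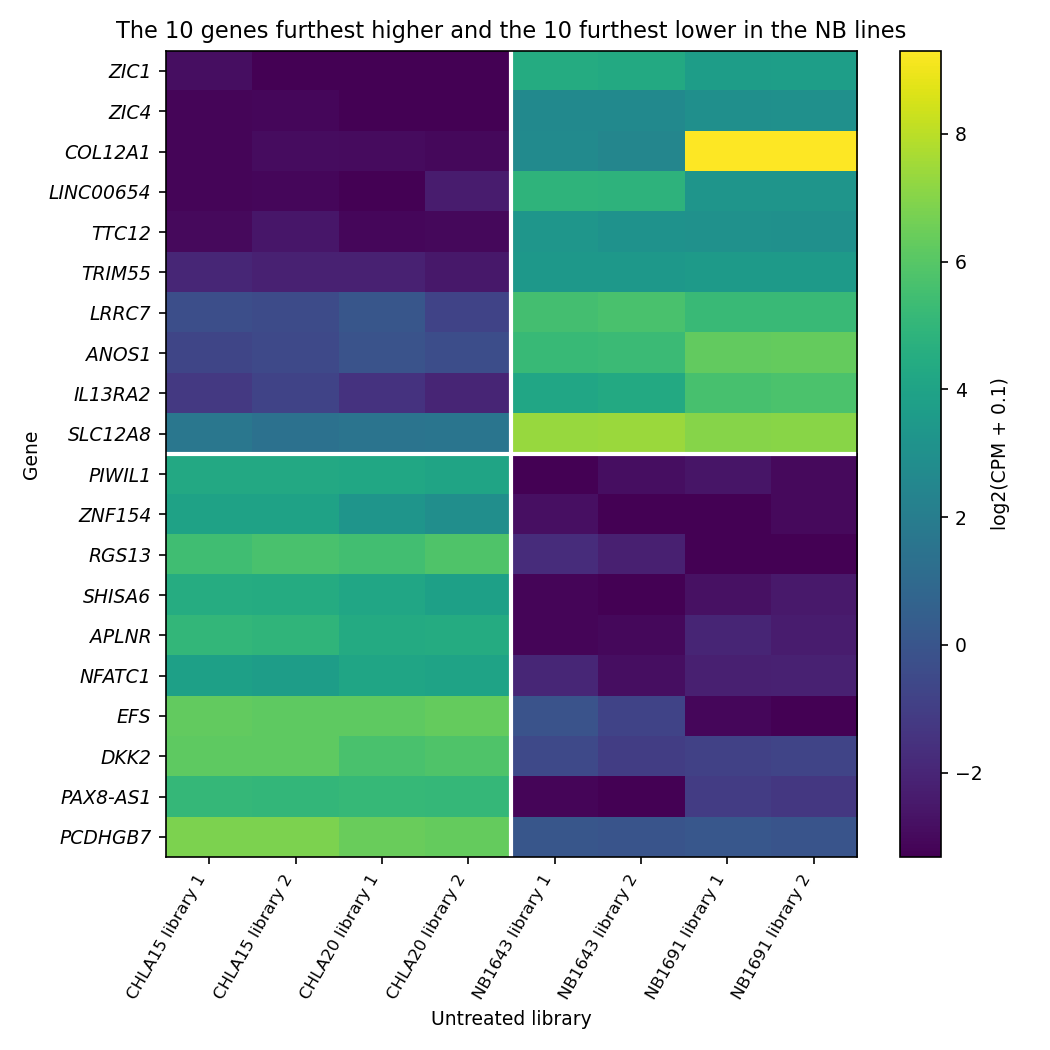
Heat map of log2(CPM + 0.1) in the 8 untreated libraries (columns) for the 10 genes furthest higher (top) and the 10 furthest lower (bottom) in the NB lines. White lines divide the sides and the 2 blocks of genes, and COL12A1 is brighter in NB1691 (628.5 to 630.8 CPM) than in NB1643 (5.43 to 6.42 CPM).

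In all, 18 genes were at 3 counts or fewer in every CHLA library and at 1 CPM or more in every NB library, and 29 genes showed the reverse. The first group held, with lower bounds of the fold, COL12A1 (100), the adhesion gene AMIGO2 (42), ZIC1 and ZIC4, the serotonin receptor HTR2C (28.8), the VEGF receptor KDR (34.5) and the growth factor homolog FGF13 (23). Each bound sets the lower of the means of both lines against 3 counts per library of the other side. KDR, listed here as an endothelial marker, was at 2.17 and 1.91 CPM in NB1643 and 3.25 and 2.95 in NB1691, while PECAM1 was at 0 counts in NB1643 and at 3.90 and 3.53 CPM in NB1691. With NB1691 as the only NB line 4 of the 5 endothelial markers were higher, against 8287 of all 20860 genes. The sum of the 5 was 14.46 to 14.62 CPM in NB1691, 1.98 to 2.25 in NB1643 and 0.616 to 1.32 in the CHLA lines. Their part in these values was not tested. The second group held ZNF154, the kinase BMX (85.1), the matrix gene FREM2 (38.1), the cofactor MYOCD (34.4) and the nicotinic receptor subunit CHRNA4 (27.6).

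The share of genes called varied between chromosomes. On chromosome 13, 31% of tested genes were lower in both NB lines (111 of 358), on chromosome 19 27.8% (331 of 1190), on chromosome 17 22% (227 of 1032) and on chromosome 18 21.6% (58 of 268), against 12% of all genes. On chromosome 22, 24.4% were higher (108 of 442), and on chromosome 1 15.8% (275 of 1740), against 9.03%. RB1 on chromosome 13 and KDM6B on chromosome 17 are among the lower genes. Other regions stood out in NB1691 only. The window at 100 to 105 Mb of chromosome 11, which holds YAP1, had a median difference of 6.97 in NB1691 and -0.01 in NB1643, and the window at 25 to 30 Mb of chromosome 7, with the HOXA cluster, had medians of 4.67 and 0.

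The palbociclib-treated libraries of the same lines, 2 per line, gave a second set of libraries with other doses on each side, 300 nM for the CHLA and 3 µM for the NB lines for 72 h. Of the 4495 genes called in untreated cells, 3674 (81.7%) were called in the same direction among treated libraries, 4461 had the same sign of the mean difference and 5 were called in the opposite direction. The mean difference was 7.62 untreated and 7.84 treated for MYCN, -7.05 and -8.22 for MYC, -5.60 and -4.40 for DBH, -3.11 and -2.63 for RET and 4.45 and 4.59 for TBX18. These genes kept their direction with drug. TOP2A differed by -1.43 untreated and -4.90 treated. Since dose and side go together, no test was made of these changes.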

How the data were processed

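Paired-end reads of total RNA were aligned to GRCh37 (STAR 2.5.3a per the labels) and counted with HTSeq by the authors. The deposited values are raw, unscaled counts per gene symbol. Although the symbols are human, a mouse annotation is named in the methods. HTSeq summary lines (no feature 5.33% to 7.56%, ambiguous 2.76% to 3.34%) were left out.

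The 8 untreated libraries were grouped by line from the labels and fitted with edgeR 4.0.16 in R 4.3.3 (TMM, filterByExpr, quasi-likelihood F test, 4 line pairs). Of 50778 listed genes 21396 were tested, and a gene was called where all 4 pairs had the same sign and the adjusted p of the largest pairwise p was under 0.05. The spread was that between libraries of a line (coefficient of variation 0.0666). The pipeline was tested on simulated data.

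Named genes were the 10 furthest in each direction by the weakest pair (at least 5 CPM in every library of the higher side, symbol in the annotation), in each list the 3 called members at either end of the mean difference, and MYCN, MYC, KDM6A, KDM6B, EZH2, CDK4, CDK6, CCND1, RB1 and E2F1. The comparison and lists were chosen with earlier results of these data known. The genes at the limit of counts and other members of the lists named in the text, among them DDC, PNMT, MAOA, RET, KIT, IGF1R, RUNX1, ASNS, SHMT2, SLC7A5 and MKI67, were chosen after their values were seen, as were FN1, COL1A1, MDM2, OS9, YAP1, CTGF, HLA-B, HAND2, GATA3, STMN2 and CHGB, which stand out in 1 NB line, go opposite ways in the NB lines or miss the test. S and G2/M lists came from Seurat 5.3.0. Of the listed symbols 30732 matched the annotation of GRCh37, 1344 of them through older names of RefSeq. TH had no promoter window. Some members of the lists are not reported here. The motif TGACGTCA was added after the data had been seen.

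Alternatives were library totals, upper quartiles, DESeq2 1.42.0, limma-voom (limma 3.58.1), other filters, all 16 libraries of the palbociclib experiment, lines as replicates, 4 against 4 libraries, a block, the treated libraries and leaving out libraries. Treated libraries of the other lines in the series were not used here. Tables were handled with pandas 2.3.3 in Python 3.11.15, and figures drawn with matplotlib 3.10.9.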

Additional observations from a re-analysis of the deposited data

Results flagged for a closer look

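Single libraries far from the rest of their side, by Dixon's ratio of the gap to the range of the 4 libraries, are listed here. Chance gives about 1 such flag in 20 groups. The ratio was taken for both sides of the named genes, so many groups were examined and flags by chance are expected among those listed. In the CHLA lines the ratio was 0.948 for AEN, 0.846 for MRTO4, 0.843 for IGF2BP1, 0.9 for MYCNOS, 0.879 for NCAPD2, 0.873 for NOC4L, 0.87 for SRM and 0.902 for TIMP1. It was 1 for HOXB9 and ZIC1, where the other 3 libraries were at 0 counts. In the NB lines it was 0.845 for PNMT, at 0.292 CPM in the lowest library and 0.443 to 0.470 in the others. IGF2BP1 ranged only from 165 to 183 CPM.

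For 12 genes of interest the NB lines went opposite ways from the CHLA lines, and the values are the differences of NB1691 minus NB1643 on the log2 scale. The genes were chosen for lying on opposite sides of the CHLA lines, so no test of this difference is given and it was not tested independently. It was 13.784 for FN1, 14.608 for COL1A1, 16.614 for YAP1 and 16.828 for CTGF. These are matrix genes or genes of the Hippo pathway, and values against libraries near 0 depend on the prior count. It was 6.7963 for MDM2, 6.9085 for OS9 and 4.6826 for CDK4, all on chromosome 12. It was -3.2181 for the adrenergic factor HAND2 and -4.4985 for the neuronal gene STMN2. For the genes of the study it was 1.3472 for KDM6A, -1.3299 for CDK6 and -1.3236 for E2F1.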

How the results depend on the processing

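The calls rest on the spread between libraries of a line. With lines as replicates 0 genes were higher and 0 lower by edgeR at an adjusted p under 0.05, with 1089 higher and 1113 lower at an unadjusted p under 0.05. Without the NB1643 libraries the counts were 8287 higher and 7383 lower, and without the NB1691 libraries 5072 and 5733, as fewer line pairs had to agree. With at least 2-fold in every pair they were 717 and 1008. The limit of 10 counts gave 28 genes at the floor in the CHLA and 69 in the NB lines. With the 2-fold rule the share of promoters with TGANTCA was 6.44% among higher and 6.01% among lower genes, and with CACGTG 5.3% among lower genes. Leaving out 1 library in turn gave 1509 to 1997 higher and 2117 to 2664 lower, and the lone library of a line was assumed to vary like the others. Other settings kept both counts within 1.5 times.

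Library numbers did not pair the samples. Deviations of same-numbered libraries from their line means correlated by -0.0773 to 0.0521, and a replicate block gave 1944 higher and 2566 lower.

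The mean difference turned its sign for genes on which the NB lines disagree. Without the NB1691 libraries it was 0.47 for STMN2, 1.10 for HAND2, 0.34 for E2F1, 0.47 for CDK6, -0.35 for KDM6A, -6.35 for FN1, -0.21 for CDK4, -0.23 for OS9, -0.15 for MDM2 and -3.19 for CTGF. Without the NB1643 libraries it was 7.16 for COL1A1, -0.10 for IGF2BP1 and -0.19 for CHGB. COL1A1 stood at 6.23 with lines as replicates, 6.25 for 4 against 4 libraries, 2.09 in treated libraries and from -0.45 to 0.22 without 1 of the NB1643 libraries in turn, and HAND2 at 0.25 with lines as replicates and 0.25 for 4 against 4. IGF2BP1 was at -0.0757 under library totals. In treated libraries OAS1 was at 0.0135, PSPH at 0.46 and CDK6 at 0.16. The cause was not tested.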

Other observations

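The mean differences of 5 amino acid genes lay nearer 0 among treated than among untreated libraries. ASNS was at 450.4, 575, 660.2 and 521 CPM in the 4 untreated CHLA libraries and at 137 to 142 CPM in the 4 treated ones, on the scale of all 16 libraries, while the NB libraries stayed at 95.5 to 147 CPM. Its mean difference between the sides was -2.24 untreated and -0.38 treated. For SLC7A5 the values were -1.60 and 0.30, for SHMT2 -1.70 and -0.52, for PHGDH -1.27 and -0.07 and for PSPH -0.71 and 0.46. The CHLA and NB lines had received different doses, and whether the change differs was not tested here.

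Transcripts of red blood cell precursors stood in a single untreated library of NB1643. Library 1 held 980 counts of HBB, 376 of CA1, 33 of AHSP, 31 of ALAS2, 22 of HBG2, 21 of HBA2 and 12 of HBA1, and library 2 held 0 counts of each. These 7 genes summed to 0 to 9 counts in the other untreated libraries. MYC was also higher in library 1 of NB1643 (0.608 CPM) than in library 2 (0.0972 CPM). HBB had 61 counts in treated NB1643 library 1 and 224 in treated NB1691 library 1. All 7 genes fell under the filter on low counts and were not tested. Their source was not tested either. Without NB1643 library 1 the calls over all genes were 1997 higher and 2664 lower.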
